A study of Drosophila melanogaster with 3 samples.

Results

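The genes of TFIID and of the general transcription factors were examined for binding of dmrt11E, a DM-domain transcription factor of Drosophila melanogaster, in whole embryos. Members were taken by gene symbol from the Ensembl annotation of the dm6 assembly: protein-coding genes named Taf with a number or TfII, together with Tbp, Trf and Trf2. The rule found 27 members among 13968 protein-coding genes. They are 15 Taf genes, 3 genes of the TBP family and 9 TfII genes, and 1 of the Taf genes, Taf12L (rye), is itself a testis copy. The other 14 Taf genes are called ubiquitous subunits below, and they were set beside 5 testis copies, namely can, mia, nht, rye and sa, of which only rye meets the symbol rule.

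The study used a transgenic fly line that stably expresses dmrt11E fused at its C-terminus to enhanced green fluorescent protein (dmrt11E-eGFP), with embryos of both sexes collected at 2 to 10 h. Chromatin sheared to 200 to 800 bp was precipitated with an antibody against the tag and sequenced (ChIP-seq). There was 1 group with 3 biological replicates, all carrying the fusion, and every deposited peak list was called against the same 1 control. The labels do not give the promoter or insertion site of the fusion, and no list from embryos without the tag was analysed here, so signal that depends on the tag or antibody cannot be told apart from binding. The labels name no separate collections beyond the replicate numbers, so spreads measure these 3 samples, and a peak from whole embryos does not tell which cells carry it.

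TFIID opens transcription by RNA polymerase II: the TATA-binding protein (TBP, the Tbp gene) and a set of TBP-associated factors (TAFs) recognise the core promoter and hold it for the other general factors. TFIIA steadies TBP on DNA, TFIIB links TBP to the polymerase, TFIIF escorts the polymerase and TFIIE prepares promoter opening. Drosophila also has TBP relatives, Trf and Trf2, and testis copies of several TAFs that act in spermatocytes, where they are needed for the genes of late sperm development. A peak at these promoters says nothing of how strongly the genes are expressed.

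The 3 replicate lists and the list from the pooled replicates hold 30000 peaks each, and the authors' reproducible (IDR) set is the 6706 highest peaks of the pooled list. Peaks were ranked in each list by the authors' signal value, rank 1 being the highest, because that value has a different scale in each list. A gene was counted as bound at its promoter when a peak summit lay within 500 bp of one of its transcription start sites (TSSs). No read depth is given in the lists, so the spread over the replicates is the only measure of precision. With 1 group and members chosen knowing earlier results, no test was made, and counts stand beside the share of all protein-coding genes.

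An IDR summit lay at the promoter of 10 of the 27 members (37.0%), against 23.8% of all protein-coding genes. They are 6 of the 14 ubiquitous subunits (Taf2, Taf4, Taf5, Taf6, Taf11 and Taf13) and 4 of the 9 TfII genes (TfIIA-L, TfIIA-S, TfIIB and TfIIEbeta). None of the 3 genes of the TBP family and 1 of the 5 testis copies (nht) had one. In the whole pooled list a promoter summit was found for 21 members (77.8%), against 51.6% of all protein-coding genes. Among genes with a pooled promoter summit, 10 of 21 members (47.6%) had one in the IDR set, against 46.1% of all such genes, so that the members stood above the background in having a listed peak and close to it in how often that peak was a high one.

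The replicates gave similar counts. Among the 6706 highest peaks of replicates 1, 2 and 3, called top peaks below, a promoter summit was found for 10, 12 and 10 members, a mean of 10.7 ± 1.15 (SD, n = 3). These are 37.0%, 44.4% and 37.0% of the members, against 23.9%, 24.0% and 23.4% of all protein-coding genes. The ubiquitous subunits numbered 6, 8 and 7, a mean of 7.0 ± 1.0 (SD, n = 3), and the testis copies 1, 1 and 0. In each replicate the share of members was above that of all genes. The spread between replicates comes from the same members counted again, so it cannot judge this difference, which was not tested. A top peak of every replicate lay at 8 members (29.6%), against 17.1% of all protein-coding genes: Taf2, Taf4, Taf5, Taf7, Taf13, TfIIA-L, TfIIA-S and TfIIB. Of the 10 members with an IDR summit, 7 had an IDR peak that overlapped a top peak of every replicate by any base. Such a peak lay at 17.2% of all protein-coding genes. A reciprocal overlap of at least 50% left 6 members against 12.0%, the difference being TfIIB. Its IDR peak of 181 bp cannot reach 50% of its peaks of 364 bp in replicate 1 and 400 bp in replicate 3. With that overlap and replicate 3 left out the count was also 6 members, against 13.9%.

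**Figure D1:**
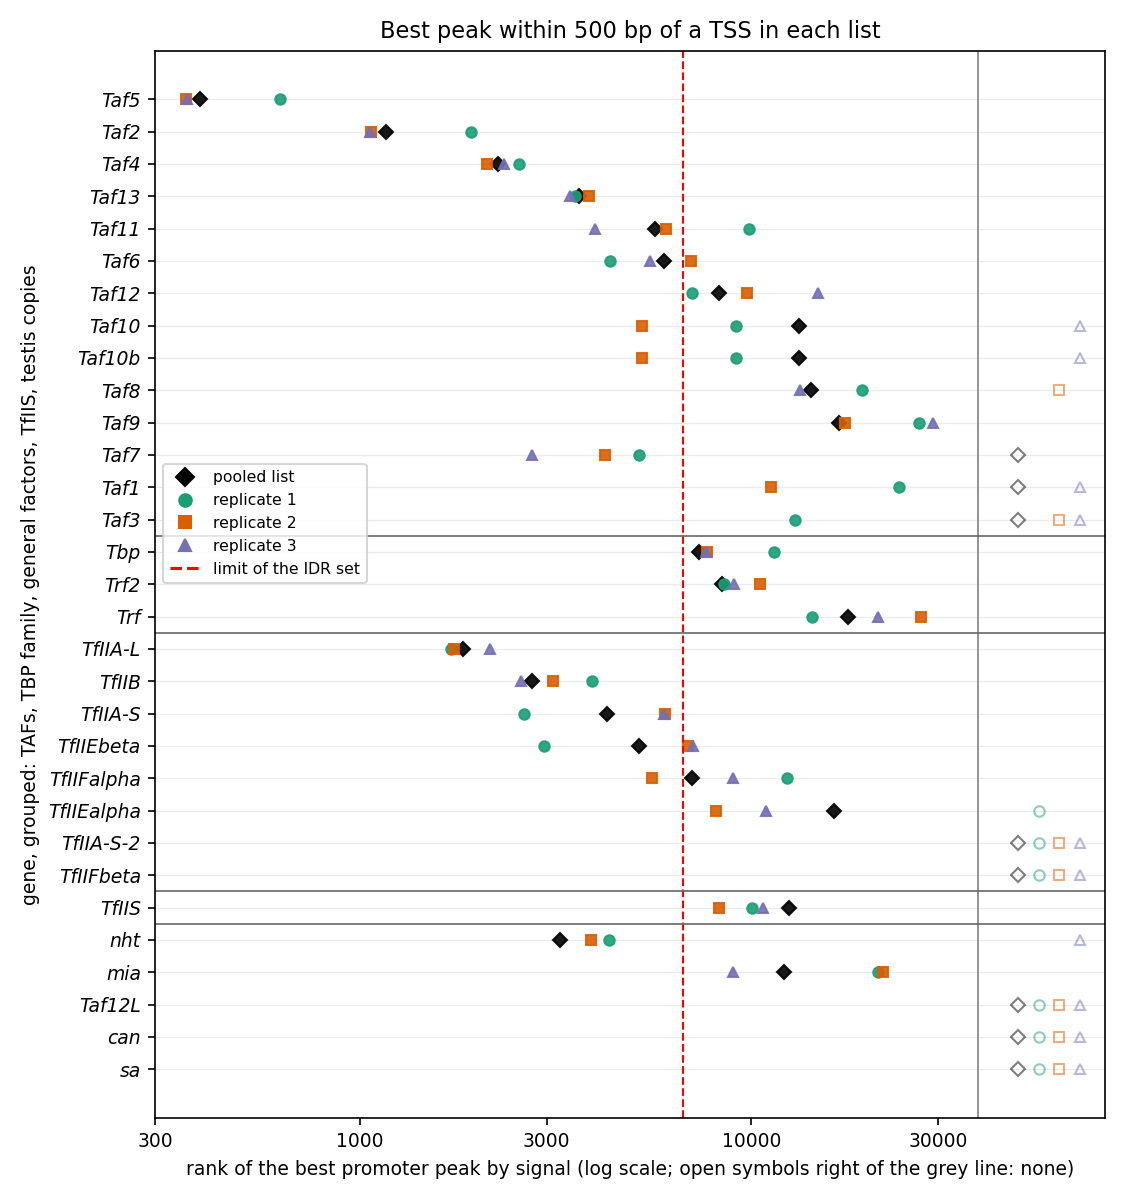
Rank of the best peak within 500 bp of a TSS for each member and testis copy in the pooled list and in replicates 1 to 3 (horizontal log axis; low numbers are high peaks), with the limit of the IDR set dashed and open symbols where a list has none. Taf5 lies farthest left in every list, Taf7 has a peak in each replicate but none in the pooled list, and Taf12L, can and sa have none in any list.

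The highest peak at a member lay at Taf5, which encodes a WD-repeat scaffold subunit. Its IDR rank was 391, with a signal of 1447, and its ranks in replicates 1, 2 and 3 were 624, 359 and 361. Replicates 2 and 3 placed it almost alike and replicate 1 somewhat lower. The summit lay 164 bp upstream of the Taf5 start and 137 bp upstream of the start of Pex6, a peroxisome biogenesis gene on the opposite strand.

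Taf2 encodes the subunit that, with Taf1, contacts the initiator of the core promoter. Its peak had IDR rank 1163 and signal 759.1, with best replicate ranks of 1919, 1068 and 1059, again lowest in replicate 1. Replicates 2 and 3 each had 2 promoter summits, of which the higher is given. In replicate 2 the peak matched to the IDR peak by reciprocal overlap was another, of rank 1397. The best summit was 239 bp upstream of Taf2 in the IDR set and in replicate 1, and 138 and 137 bp upstream in replicates 2 and 3. CalpB, a calpain protease gene on the opposite strand, starts within the same window, and the IDR summit lay 160 bp downstream of its start.

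Taf4 encodes a histone-fold subunit that pairs with Taf12 and is the ubiquitous counterpart of nht. It had IDR rank 2252 and signal 455.3, and its replicate ranks of 2555, 2113 and 2330 lay close together. The summit was 141 bp upstream of 1 of its 3 TSSs and 437 bp downstream of the outermost one, with no other coding start in the window. Taf4 is thus 1 of the 3 members whose IDR peak lay at no other coding gene, with TfIIA-S and TfIIEbeta.

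Taf13 and Taf11 encode a histone-fold pair. Taf13 had IDR rank 3620 and signal 299.7, and with replicate ranks of 3538, 3840 and 3446 it varied least of the 10 members, its highest rank number being 1.11 times its lowest. Taf11 had IDR rank 5687 and signal 196.2, and with replicate ranks of 9850, 6058 and 3989 it varied most, by 2.47 times. Replicate 1 left Taf11 outside its top peaks, whereas replicate 3 placed it near Taf13.

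Taf6, a histone-fold partner of Taf9 and the ubiquitous counterpart of mia, was the lowest of the 10, with IDR rank 5963 and signal 187.8. Its replicate ranks were 4356, 7005 and 5512, so that replicate 2 held it just outside the top peaks. The summit lay 181 bp upstream of Taf6 and 152 bp upstream of ash1, a trithorax-group gene for a histone methyltransferase, on the opposite strand. Just below the limit of the IDR set stood TfIIFalpha, which encodes the large TFIIF subunit, with pooled rank 7049 and signal 156.7.

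Among the general factors, TfIIA-L, which encodes the precursor of the large TFIIA subunits, had the highest peak, with IDR rank 1833 and signal 540.6. Its ranks were 1708, 1741 and 2142 in replicates 1, 2 and 3, a narrow spread. This peak lay 142 bp upstream of an internal TSS and 2176 bp downstream of the outermost start, and 106 bp upstream of pll, the kinase gene of the Toll pathway, on the opposite strand. With only outermost starts counted TfIIA-L was no longer among the members with an IDR summit, which left 9 members against 21.6% of all protein-coding genes.

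TfIIB had IDR rank 2751 and signal 382.7, with replicate ranks of 3926, 3109 and 2585. Its summit, 312 bp upstream, was the farthest from its own start among the 10, and lay 108 bp upstream of Bug22, a gene of cilia and sperm flagella on the opposite strand. TfIIA-S, for the small TFIIA subunit, had IDR rank 4269 and signal 257.9, with replicate ranks of 2626, 6007 and 5992. TfIIEbeta had IDR rank 5150 and signal 214.9, with replicate ranks of 2959, 6886 and 7103. Both of the latter were higher in replicate 1 than in the other two, the reverse of Taf5, Taf2 and Taf11, so that no replicate was low at every member.

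The DNA under 5 of these summits is shown for its base composition, mostly rich in A and T, and for the few searched motifs it holds. Each sequence is in the direction of the named gene, was read from the RefSeq copy of dm6 and covers the bases within 50 bp of the IDR summit that lie outside annotated untranslated regions. Capitals mark ACAATGT or its reverse complement (a core of the DM-domain site), CGATA or its reverse complement (a core recognised by the insulator protein BEAF-32) and TCAGT (an initiator core). The windows are chr3L:19598857-19598957, plus strand, for Taf6; chr3L:16113599-16113699, plus strand, for Taf4; chr3R:27253238-27253338, plus strand, for TfIIA-L; chr3R:23891061-23891144, minus strand, for TfIIA-S; and chr3L:4286924-4287024, plus strand, for TfIIEbeta.
Taf6: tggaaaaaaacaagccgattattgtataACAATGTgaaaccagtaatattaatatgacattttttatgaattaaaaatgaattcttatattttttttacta
Taf4: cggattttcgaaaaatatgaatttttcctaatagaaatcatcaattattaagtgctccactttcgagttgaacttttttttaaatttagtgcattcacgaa
TfIIA-L: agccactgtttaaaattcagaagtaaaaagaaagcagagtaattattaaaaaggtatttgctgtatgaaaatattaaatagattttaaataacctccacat
TfIIA-S: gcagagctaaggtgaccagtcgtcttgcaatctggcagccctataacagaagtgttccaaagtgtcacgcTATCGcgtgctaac
TfIIEbeta: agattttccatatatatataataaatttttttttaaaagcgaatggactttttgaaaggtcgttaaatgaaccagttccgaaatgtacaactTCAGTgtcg

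The sequence at Taf6 held the DM-domain core ACAATGT, and it was the only 1 of the 10 member windows to do so (10.0%), against 1.52% of 2308 such windows at IDR promoter peaks. The looser ACANTGT was found in the same window and in no other member window, against 3.68% of all. CGATA occurred at Taf11 and TfIIA-S (20.0% of members, 21.0% of all), and TATAAA, the TATA box, at Taf5 and Taf13 (20.0% and 27.4%). TCAGT occurred at TfIIEbeta (10.0% and 14.3%). Both strands were searched, TATCGATA contains CGATA, every ACAATGT is also an ACANTGT, and a match is a description of the letters, not a site.

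The other searched motifs had no match in the 10 member windows, which says only that their letters are not in these windows. They were TATCGATA (2.90% of all IDR promoter windows), GTCACACT (1.30%), CAGCTG (2.99%), GAGAG (5.94%), CAGGTAG (0.433%) and AGATAA (8.23%). The median GC content of the member windows was 25.7%, against 29.7% over all of them. Among members it ran from 12.9% at Taf2 and 15.8% at Taf5 to 36.6% at TfIIB and 49.5% at TfIIA-S. The AT-rich Taf4 and TfIIA-L sequences above, at 27.7% and 24.8%, lie in the middle of that range. The full TfIIA-S window, of which only 84 bp are shown above, is its upper end.

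All 10 IDR summits at members lay upstream of the nearest start of their gene, against 89.9% over all protein-coding genes. Their distances ran from 28 bp at Taf11 to 312 bp at TfIIB, with a median of -153 bp (negative meaning upstream) beside -144 bp over all such genes. The replicate summits lay 177, 160 and 173 bp upstream at Taf5, close together, but 245, 52 and 243 bp upstream at Taf6 and 54, 9 and 191 bp upstream at Taf11. In the pooled list 18 of 21 members (85.7%) had their best summit upstream, against 79.4% over all, and Taf9, Taf10b and Trf2 were the exceptions.

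**Figure D2:**
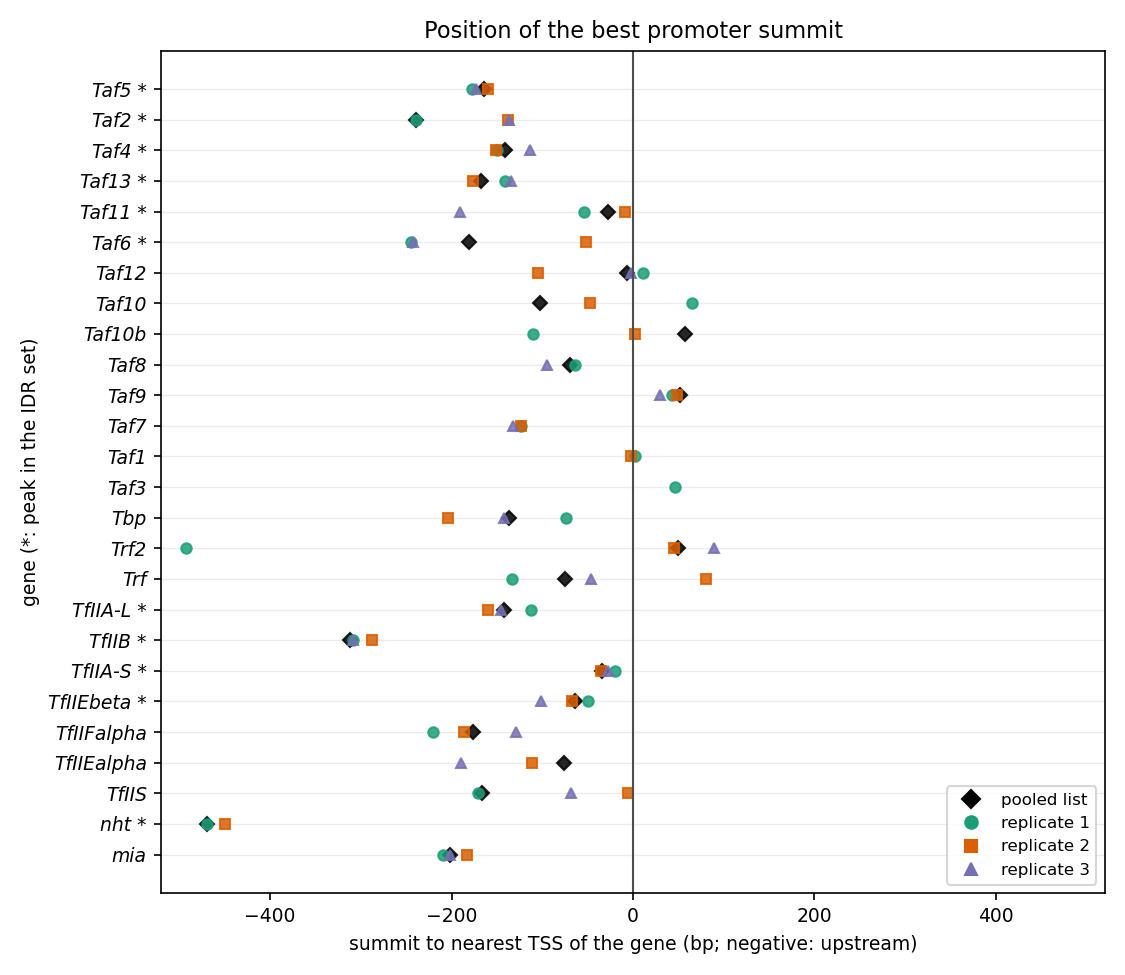
Distance in bp from the best promoter summit to the nearest TSS of the gene (horizontal axis; negative is upstream) for each member and testis copy with a peak, in the pooled list and in each replicate; asterisks mark genes in the IDR set. The pooled summits of the 10 IDR members all lie left of 0, between 28 and 312 bp upstream, and that of nht lies farther out at 470 bp.

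Most of these peaks also lay near the start of a neighbour. At 7 of the 10 members (70.0%) the IDR peak was also within 500 bp of another coding start, against 60.5% over all protein-coding genes with an IDR promoter summit, and in all 7 the other gene lay on the opposite strand. By the IDR summit, the other start was the nearer one in 6 of the 7 (Bug22, CalpB, Pex6, ash1, nesd and pll). Only for Taf11, beside und, was the member's start nearer. Replicate summits changed the nearer start at Taf6, TfIIA-L and Taf11. In replicate 2 the summit lay 52 bp from Taf6, which starts 333 bp from ash1, so Taf6 was nearer. In replicate 3 it lay 191 bp from Taf11, which starts 107 bp from und, so und was nearer. Over all coding genes with such a shared IDR peak, the other start was nearer in 49.0% of 2011. Genes at a shared peak are mostly counted there from both sides, so this share lies near an even split by construction. At Taf13 and Taf2 the IDR summit lay past the neighbour's start, and at the other 5 it lay upstream of both starts. The IDR summit was 45 bp downstream of nesd and 168 bp upstream of Taf13, and 79 bp upstream of und and 28 bp upstream of Taf11.

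Head-to-head arrangement went with the IDR peaks among members as it did among all genes. A coding start on the opposite strand within 500 bp of the outermost start was present for 7 of the 10 members with an IDR promoter summit (70.0%) and 6 of the 17 without (35.3%), against 49.8% and 17.2% over all protein-coding genes. For TfIIA-L that neighbour is TTLL6B at the outermost start, not pll. An IDR summit was present at 7 of 13 members so arranged (53.8%) and 3 of 14 others (21.4%), against 47.5% and 15.9% over all protein-coding genes. Its part in the share of members with a peak was not tested.

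The other 17 members had no IDR summit at their promoter, and 11 of them had a pooled one. All 3 genes of the TBP family belong here. Tbp had pooled rank 7337, with replicate ranks of 11392, 7693 and 7675, just outside the top peaks of replicates 2 and 3. Trf2, whose product serves promoters without a TATA box, had pooled rank 8407 and replicate ranks of 8516, 10530 and 9025. In replicate 1 the best peak was a different one, 493 bp upstream of another TSS of Trf2. The replicate ranks are therefore not those of 1 peak.

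Trf, which works with RNA polymerase III in flies, had pooled rank 17688 and replicate ranks of 14304, 27152 and 21091, a weak and scattered peak that also lay at MED20, a Mediator subunit gene. No gene of the TBP family had a top peak in any replicate, beside 23.9%, 24.0% and 23.4% of all protein-coding genes. In the pooled list all 3 had a promoter summit, beside 51.6%.

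Among the remaining subunits, Taf12 had pooled rank 8284, with replicate ranks of 7046, 9753 and 14821, at a start 53 bp from that of the heme oxygenase gene Ho on the opposite strand. Taf10 and Taf10b, which encode alternative histone-fold subunits, start 45 bp apart on opposite strands and share 1 pooled peak of rank 13267, which is counted for each of them. That peak had ranks 9124 and 5250 in replicates 1 and 2 and none in replicate 3, so it was a top peak in replicate 2 only. Taf8, the counterpart of sa, had pooled rank 14217 with replicate ranks of 19222 and 13275 and no peak in replicate 2. Its start also had an IDR summit 655 bp away, outside the window, of rank 5388.

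Taf9 had pooled rank 16740 and replicate ranks of 26825, 17385 and 29152, so that it was a weak peak in every list. TfIIFalpha ranked 12356, 5562 and 8999 in the replicates and TfIIEalpha ranked 8111 and 10902 in replicates 2 and 3, with none in replicate 1 and pooled rank 16279. TfIIS, an elongation factor that helps a stalled polymerase resume and no part of TFIID, had pooled rank 12451 and replicate ranks of 10017, 8251 and 10710. Of these, TfIIFalpha alone reached the top peaks of a replicate. The nearest IDR summit to TfIIS was 790 bp away, with rank 2649.

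Taf1, Taf3 and Taf7 had promoter peaks in replicate lists but not in the pooled list. Taf1, the largest subunit, had ranks 23797 and 11243 in replicates 1 and 2, both 2 bp from its start, and none in replicate 3. Taf3, on chromosome 4, had only a peak of rank 12939 in replicate 1, and the nearest pooled summit, of rank 9311, was 512 bp from its start, just outside the window.

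Taf7 encodes a subunit that binds Taf1, and its peaks were higher. Its ranks were 5162, 4218 and 2756 in replicates 1, 2 and 3, with signals of 60.76, 85.01 and 170.1 on the scale of each list. These were top peaks in every replicate, placed 124, 124 and 132 bp upstream of 1 of the 2 Taf7 starts. They lay 181, 181 and 173 bp downstream of the outermost Taf7 start, and also at the start of EMC1 on the opposite strand. No pooled peak overlapped them, and the nearest pooled summit was 4001 bp away. Of 3048 top peaks of replicate 1 shared with top peaks of both other replicates (reciprocal overlap of at least 50%), this was the only 1 without an overlapping pooled peak (0.0328%). Among 2394 coding genes with a top summit of every replicate, 3 had no pooled summit within 500 bp (0.125%). Taf7 is therefore not among the 10 members with an IDR summit, and the cause was not tested.

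TfIIFbeta, TfIIA-S-2 and Taf12L had no promoter summit in any list. The nearest pooled summit to TfIIFbeta, for the small TFIIF subunit, was 6658 bp away and that to TfIIA-S-2 was 1567 bp away. TfIIFalpha, the gene of the partner subunit, and TfIIA-S, the paralog of TfIIA-S-2, each had a promoter peak in all 3 replicates.

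The share of any gene set can only rise as weaker pooled peaks are counted. For members it was 3.70% among the 1000 highest pooled peaks, beside 4.32% of all protein-coding genes, and 18.5% beside 11.9% among the 3000 highest. By 10000 peaks it was 51.9% beside 32.8%, and by 20000 it reached 77.8% beside 46.0%, after which no further member was added. The median pooled rank of the 21 members with a promoter summit was 7049, beside 7421 over all protein-coding genes with one. Within the IDR set the median was 3185.5 for the 10 members and 3010 over all. By these medians the members' peaks were neither high nor low among promoter peaks, but the replicates differed in direction. In replicate 1 the member median was 8516, beside 7433.5 over all. In replicates 2 and 3 it was 6032.5 and 6547.5, beside 7385 and 7327.5.

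**Figure D3:**
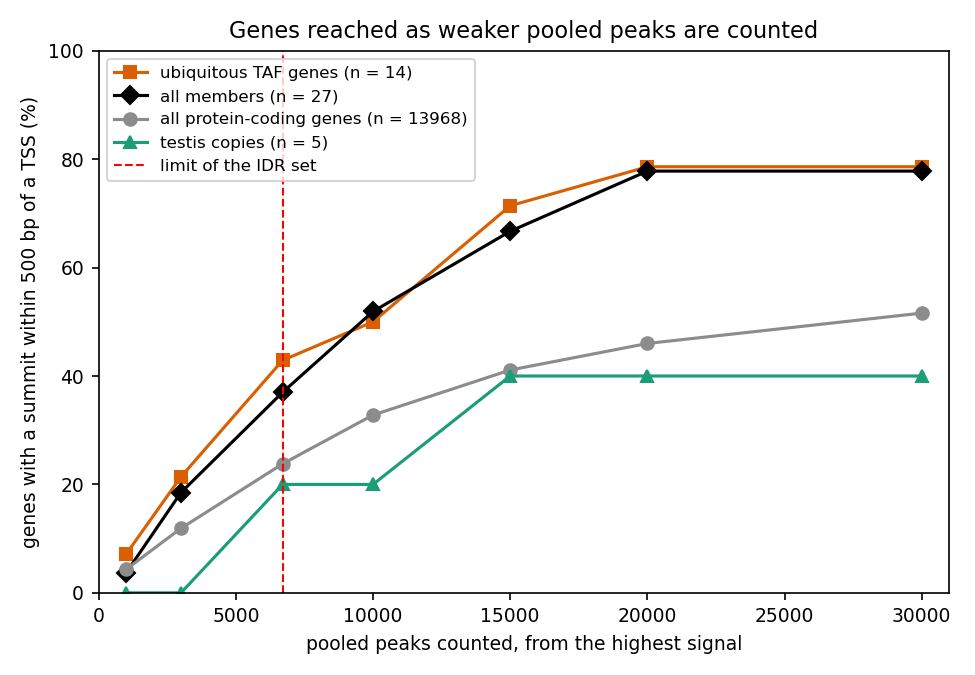
Share of genes in percent with a summit within 500 bp of a TSS as pooled peaks are counted down from the highest signal, for the 14 ubiquitous subunits, all 27 members, all 13968 protein-coding genes and the 5 testis copies; the dashed line is the limit of the IDR set. Members reach 37.0% at that limit and 77.8% at 20000 peaks, all protein-coding genes 23.8% and 46.0%, and the testis copies are lowest at the limit, at 20.0%.

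Of the testis copies 1 of 5 (20.0%) had a promoter summit in the IDR set, beside 6 of 14 ubiquitous subunits (42.9%) and 23.8% of all protein-coding genes. In the pooled list it was 2 of 5, beside 11 of 14 (78.6%) and 51.6%. The testis copies' IDR share is close to that of all genes, and the difference from the ubiquitous subunits was not tested. The count also depends on the window. It was 0 of 5 at 200 bp and 2 of 5 at 1000 bp, beside 16.5% and 27.1% of all protein-coding genes. The 1 IDR peak, at nht, overlapped a top peak of every replicate.

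The testis copy with an IDR summit was nht, the counterpart of Taf4, with rank 3243 and signal 332.8. Its summit lay 470 bp upstream, near the edge of the window. Replicates 1 and 2 placed it at 470 and 450 bp with ranks 4338 and 3901, and replicate 3 had a higher peak, of rank 2741, at 529 bp, which the window left out. All 3 replicates thus had a top peak upstream of nht, at a greater distance than any IDR member.

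The gene can, the counterpart of Taf5, had an IDR peak of rank 6263 and signal 178.1 just outside the window, 700 bp upstream. In replicates 1, 2 and 3 the nearest summits were 642, 704 and 608 bp upstream with ranks 14657, 4990 and 7150, so only replicate 2 held it among its top peaks. Taf5 itself had rank 391 at 164 bp, higher and nearer in every list.

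**Figure D4:**
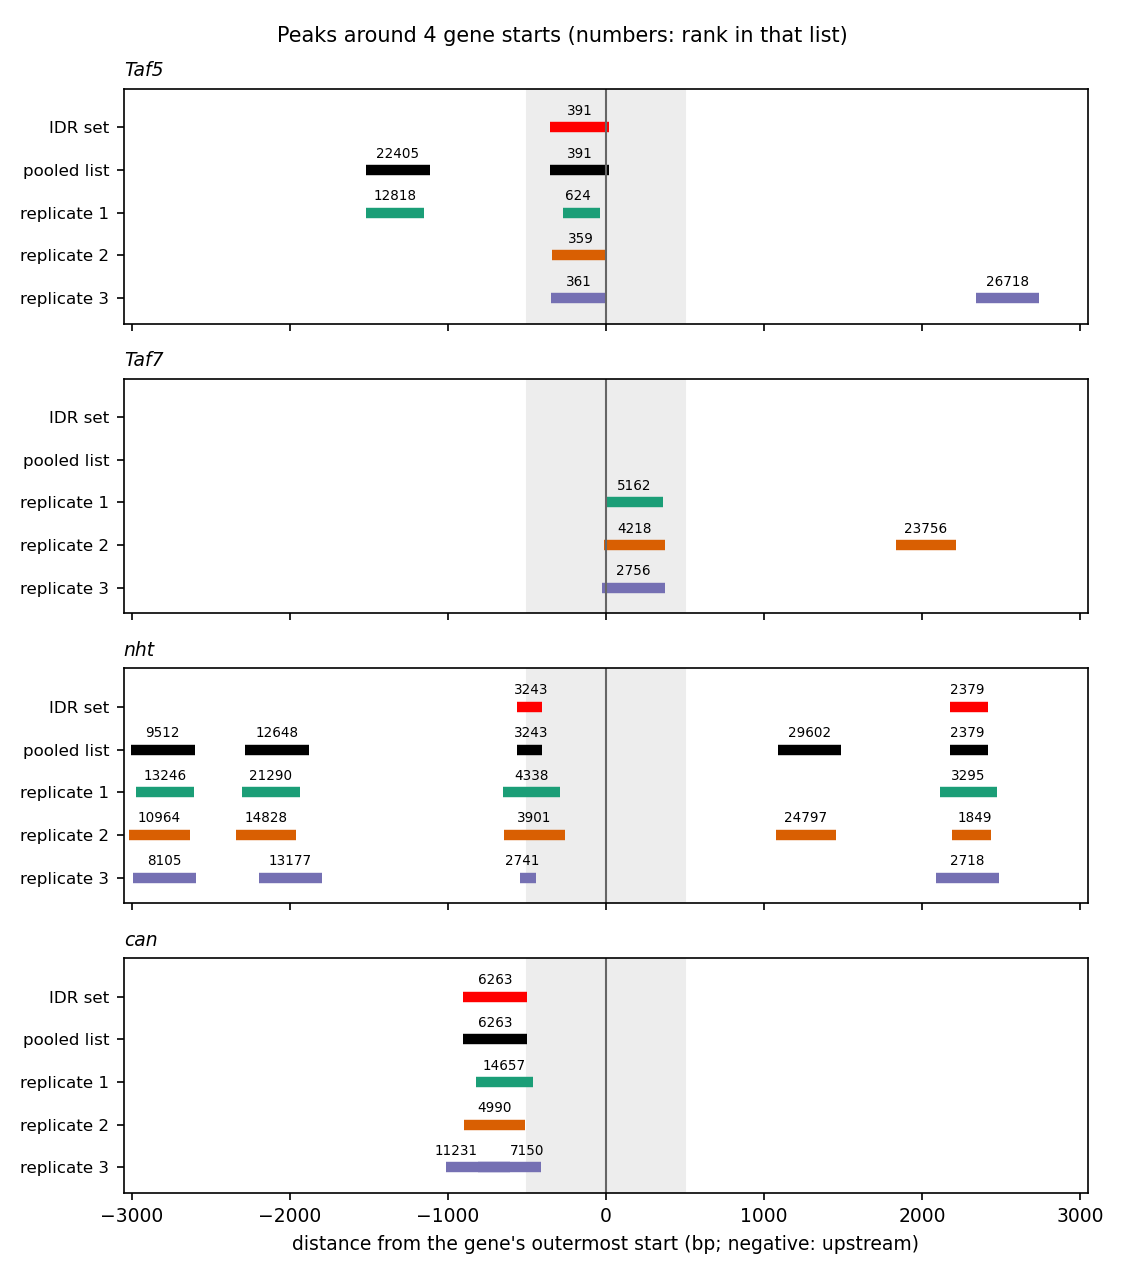
Peaks around the outermost starts of Taf5, Taf7, nht and can (horizontal axis: distance in bp, negative is upstream; shaded: within 500 bp), 1 bar per peak in each list with its rank above. The Taf5 peak is in every list, that of Taf7 in the replicates only, that of nht straddles the edge of the window 470 bp upstream, and that of can lies beyond it at 700 bp.

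For mia, the counterpart of Taf6, a weak pooled peak of rank 12122 lay 202 bp upstream, with replicate ranks of 21106, 21637 and 8970. The replicates placed it alike, between 183 and 210 bp upstream, but ranked it differently. The genes sa and Taf12L (rye), counterparts of Taf8 and Taf12, start inside the coding genes rgn and dcma, and their nearest IDR summits were 26548 and 82105 bp away. For all 5 pairs the ubiquitous subunit had a pooled promoter summit, and for 2 of the pairs, Taf4 with nht and Taf6 with mia, so did the testis copy.

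Other genes of the initiation machinery, from lists drawn up with earlier results of these data known, give the setting. In SAGA, a coactivator that shares TAFs with TFIID, 10 of 14 genes (71.4%) had an IDR promoter summit, beside 23.8% of all protein-coding genes, the highest at wda, Gcn5 and Sgf11 with ranks 343, 1032 and 1751. Among subunits of RNA polymerase II it was 7 of 12 (58.3%), led by Polr2B, Polr2H and Polr2J with ranks 515, 756 and 913. The peak at wda thus ranked above that of Taf5, the highest member, and those of Gcn5 and the 3 polymerase genes fell between Taf5 and Taf2.

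Of 3 regulators of TBP, NC2alpha (rank 789) and Hel89B (rank 1967) had IDR promoter summits and NC2beta had only a pooled one of rank 15802. Both genes for polymerase III initiation, Bdp1 and Brf, had higher peaks than any member, with ranks 143 and 245, whereas Trf, the partner of Brf, had none in the IDR set. Of 6 testis meiotic arrest genes, which act with the testis TAFs, none had an IDR summit and 2, achi and vis, had pooled ones of ranks 11680 and 21987, beside 23.8% and 51.6% of all protein-coding genes. These ranks are values of this one experiment and were not tested against each other.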

How the data were processed

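ChIP-seq peak lists of dmrt11E-eGFP in embryos were analysed: 1 list for each of 3 biological replicates, 1 for the pooled replicates and the authors' IDR set. Per the file headers and labels, the authors called peaks on each replicate and on the pool, each against the same 1 control, on dm6; the aligner, peak caller and IDR threshold were not given in the sources used here. The signal value per peak is the authors' own and was used only to rank peaks within a list. The deposited −log10 q (q-value) was used only for an alternative that kept pooled peaks of at least 2. The summit offset deposited by the authors gave each summit.

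Summits were placed within 500 bp of TSSs of Ensembl release 115 (BDGP6.54), and a gene's best peak was the one of highest signal. The members and gene lists were chosen with earlier results of these data known. All members and the 5 testis copies are accounted for; outside them, genes sharing a member's peak and the 3 highest genes of each list are named. The symbol rye was mapped to Taf12L by hand, because another gene shares the synonym. Counts carry the mean ± SD over replicates; no p-value was computed. The 50 bp to either side of each summit were searched for motifs on both strands in the RefSeq genome of the assembly. Coordinates count from 1.

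Alternatives changed the window, the start sites, the peaks counted and the replicates required. A planned protein identity comparison of testis copies with their counterparts was not run here. Placement was tested on simulated data, where 200 of 200 genes were placed as made. The software was Python 3.11.15, numpy 2.4.6, pandas 2.3.3 and matplotlib 3.10.9. The lists give no read depth, so the spread over the replicates is the only measure of precision.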

Additional observations from a re-analysis of the deposited data

How the results depend on the processing

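No paired analysis was possible because there is only 1 group. The 10 members with an IDR promoter summit became 5 with only the 3353 higher IDR peaks and 6 when a 50% reciprocal overlap with a top peak of every replicate was required; with that rule and 1 replicate left out in turn the count was 6 to 7. The 6 ubiquitous subunits became 3 with the higher IDR peaks, and 4 to 5 with 1 replicate left out. The single testis copy became 0 at 200 bp, 2 at 1000 bp, 2 with the peak interval in place of the summit, and 0 under the 50% rule, with every replicate required or any 1 left out. That last 0 follows from peak widths: the IDR peak of nht, 162 bp, lies in peaks of 364 and 384 bp in replicates 1 and 2 and cannot reach 50% of them. With any overlap in place of 50%, an alternative chosen after seeing the data, every replicate left 7 members, 4 ubiquitous subunits and 1 testis copy, and leaving out 1 replicate gave 7 to 8, 4 to 5 and 1. The mean count of top peaks, 10.7, became 5.33 with the 3000 highest peaks and 15.7 with the 10000 highest. In the pooled list, those limits reached 11.9% and 32.8% of all protein-coding genes. These alternatives change the peaks counted for every gene. The share of all protein-coding genes was 13.2% with the higher IDR peaks and 12.0% with every replicate required at 50%. With 1 replicate left out it was 13.6% to 15.9% at 50% and 18.2% to 19.7% with any overlap. The member count otherwise ran from 8 at 200 bp to 14 among pooled peaks with −log10 q of at least 2, where the share of all genes was 36.0%. The 5 lists rest on 1 control and on fixed numbers of peaks, so a gene without a listed peak may hold a weaker one, and no read depth limits can be stated.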

Other observations

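Each member without an IDR promoter summit had a nearest IDR peak farther away, which is no trait of the members. Some of high rank are given here. Taf12 had one of rank 557 at 1416 bp from its start, Taf9 one of rank 572 at 2686 bp and TfIIFbeta one of rank 1297 at 6658 bp. Trf2, a long gene of 23740 bp, had 24 pooled peaks within 1000 bp of its body, and none of them was in the IDR set. A further IDR peak of rank 2379 lay 2287 bp downstream of the nht start, higher than the one upstream of it. These are positions only, and the gene each peak serves is not known.

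In the 20 pooled windows at members the median GC content was 32.7%, beside 35.6% over 5513 pooled promoter windows, and CGATA was in 5 of them (25.0%, beside 23.3%). Of these windows, those at Taf9, Trf2 and TfIIFalpha held CGATA without being in the IDR set, and that at Trf held GTCACACT.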
